A study of Mus musculus with 18 samples.

Results

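The transcriptome described here is that of mouse Kupffer cell preparations at the start of an acetaminophen time course. It comprises the 3 libraries at 0 h, out of 18 libraries in the series, chosen by their time label alone and not by any measured value. The cells came from livers of wild-type C57BL/6J mice. Per the labels' protocols, each liver was perfused and digested with collagenase, hepatocytes were spun out at low speed, nonparenchymal cells were banded on a density gradient, and Kupffer cells were kept by brief adherence to a dish. The columns of these libraries are named for PBS whereas the treatment label names acetaminophen, so the group is described by its time, 0 h. The labels do not say that replicates 1, 2 and 3 came from separate animals. No other group enters the description, and with 1 group no difference between conditions was tested. Values of single genes are given in the order of replicates 1, 2 and 3.

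Kupffer cells are the resident macrophages of the liver. They line the sinusoids, take up particles, bacteria, old red blood cells and modified lipoproteins from portal blood, and return the iron of heme to the circulation. Their lineage depends on the growth factor receptor encoded by Csf1r and on the transcription factor PU.1, encoded by Spi1, while the liver X receptor encoded by Nr1h3 helps to set their liver-specific genes. Cells prepared by digestion and adherence can carry along hepatocytes, sinusoidal endothelial cells and blood leukocytes, and bulk RNA sums over all of them.

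Total expected counts, which are estimated reads per gene, were 19472515, 19954270 and 19255899. Of 18853 genes in the table, 11492 (61.0%) had at least 1 FPKM (fragments per kilobase, scaled to the library total) in all 3 libraries and are termed detected below. Protein-coding genes held 99.4% to 99.6% of the counts. Replicate 1 stood apart: across detected genes, the Pearson correlation of log2(FPKM + 1) was 0.987 between replicates 2 and 3, 0.971 between 1 and 2, and 0.961 between 1 and 3. These correlations run across genes, which are not independent replicates. CPM (the count per 1000000 counts of the library) differed by more than 2-fold for 1.48% of detected genes between replicates 2 and 3, 5.53% between 1 and 2, and 8.07% between 1 and 3. Some shares and medians are therefore also given without replicate 1. Values given over all 3 libraries alone may depend on it as well. In CPM, 31.7%, 25.8% and 42.4% of all detected genes were highest in replicates 1, 2 and 3, and 46.0%, 28.6% and 25.3% were lowest there. With DESeq2 size factors in place of library totals, 38.8%, 31.6% and 29.6% were highest and 39.7%, 24.3% and 36.1% lowest. Counts of list members by library are to be read against these shares.

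The 4 markers given for the labelled cell type were all well above the median of detected genes, 12.8 FPKM. This level alone does not identify a cell type, since the hepatocyte and endothelial lists had medians of 156 and 123 FPKM. Of the 4, Csf1r belongs to the pan-macrophage list. Start regions of the other markers, Clec4f, Timd4 and Cd5l, 3 of the 15 Kupffer cell list genes, are printed first. That of Fcna, which held the most matches to the core motif of PU.1, is printed with them. Each runs from 250 bases before to 50 bases after a start that the RefSeq promoter table gives (GRCm38.p6), 5′ to 3′ on the gene's strand, and capitals mark GAGGAA on either strand, so TTCCTC is the same motif on the other strand. The regions are chr6:83656067-83656366 (minus strand) for Clec4f, chr11:46810549-46810848 (plus) for Timd4, chr3:87357631-87357930 (plus) for Cd5l and chr2:25627925-25628224 (minus) for Fcna. The Fcna window lies inside the annotated span of its gene, chr2:25624665-25635440, and not at the outer end of that span.
Clec4f: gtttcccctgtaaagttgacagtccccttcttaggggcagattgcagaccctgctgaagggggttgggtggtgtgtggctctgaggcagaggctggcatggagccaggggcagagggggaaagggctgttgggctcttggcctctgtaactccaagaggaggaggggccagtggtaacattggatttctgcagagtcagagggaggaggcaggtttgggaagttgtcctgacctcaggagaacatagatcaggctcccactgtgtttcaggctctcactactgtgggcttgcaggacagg
Timd4: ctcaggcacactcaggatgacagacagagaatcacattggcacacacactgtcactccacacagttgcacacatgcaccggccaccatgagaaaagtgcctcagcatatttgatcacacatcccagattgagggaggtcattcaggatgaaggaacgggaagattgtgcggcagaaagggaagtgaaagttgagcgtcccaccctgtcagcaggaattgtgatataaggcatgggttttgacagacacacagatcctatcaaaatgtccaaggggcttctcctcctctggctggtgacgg
Cd5l: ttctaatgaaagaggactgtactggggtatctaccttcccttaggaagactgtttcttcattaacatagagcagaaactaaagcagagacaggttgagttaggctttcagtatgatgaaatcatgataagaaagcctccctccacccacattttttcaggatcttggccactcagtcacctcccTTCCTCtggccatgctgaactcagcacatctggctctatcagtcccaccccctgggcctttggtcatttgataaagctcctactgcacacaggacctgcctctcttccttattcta
Fcna: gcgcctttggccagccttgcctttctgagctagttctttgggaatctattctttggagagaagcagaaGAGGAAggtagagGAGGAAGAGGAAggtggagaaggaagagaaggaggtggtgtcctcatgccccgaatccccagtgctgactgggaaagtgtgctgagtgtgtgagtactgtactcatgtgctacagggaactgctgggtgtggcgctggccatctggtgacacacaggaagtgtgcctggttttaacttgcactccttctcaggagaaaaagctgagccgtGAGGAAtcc
GAGGAA occurred 4 times in the Fcna window, once in that of Cd5l and in neither of the windows of Clec4f and Timd4. Of the 15 genes, 13 had an entry in the promoter table, with 14 windows in all, and 5 of these windows (35.7%) held GAGGAA, against 28.3% of all 32851 windows of this length. For the pan-macrophage list the share was 8 of 12 windows, for the hepatocyte list 7 of 34 and for the endothelial list 5 of 15. The longer GAGGAAGT, searched on both strands and overlapping the core, was in 0 of the 14 Kupffer windows and in 3.20% of all windows. It was in 2 of 12 pan-macrophage, 0 of 34 hepatocyte and 1 of 15 endothelial windows. The hepatocyte factor motif HNF1 was in 3 windows of all and in 0 of these lists. A match describes letters only, and no match says nothing about binding.

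Clec4f, a C-type lectin of mouse Kupffer cells, had FPKM of 598, 559 and 904 (mean 687 ± 189 SD, n = 3). Timd4, a receptor for phosphatidylserine on dying cells, had FPKM of 150.0, 153 and 217. Cd5l, a secreted inhibitor of apoptosis and a target of the liver X receptor, had FPKM of 1167, 1197 and 1859, and ranked 17 of all genes. In all of these genes replicates 1 and 2 lay close together and replicate 3 was higher. Csf1r, the receptor for macrophage colony-stimulating factors, had FPKM of 529, 423 and 601, with replicate 2 the lowest. On the GRCm38 annotation the 4 genes lie at chr6:83644542-83656116, chr11:46810786-46844333, chr3:87357881-87371074 and chr18:61105572-61131139 in the order named here.

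All 15 genes of the Kupffer cell list were detected, with a median of 163 FPKM, and 12 had a mean of more than 100 FPKM. The scavenger receptor Marco had FPKM of 1064, 766 and 636 and was the 1 member of the list that was highest in replicate 1. The other 14 were highest in replicate 3. Among them, the lectin Fcna had FPKM of 522, 536 and 775, and the iron exporter ferroportin, Slc40a1, had FPKM of 377, 403 and 582. The complement receptor Vsig4 (CRIg) had FPKM of 275, 282 and 511, so its level in replicate 3 was 1.86 times that of its lowest library (in CPM). The lowest members were the monocarboxylate transporter Slc16a9 at 4.03, 4.72 and 9.15 FPKM and the potassium channel Kcna2 at 2.29, 1.69 and 4.11 FPKM. As background, 42.4% of all detected genes were highest in replicate 3, or 29.6% with DESeq2 size factors in place of library totals, while the count of 14 was the same with either.

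Genes shared by macrophages of many tissues were higher still, with all 20 detected and a median of 446 FPKM. Lysozyme 2, Lyz2, had FPKM of 6432, 4016 and 3155 and was the most expressed gene of replicate 1. The C1q chains, which start the classical complement pathway, had FPKM of 991, 1004 and 1449 for C1qa, 1075, 1022 and 1465 for C1qb, and 1008, 941 and 1510 for C1qc. The list was thus not uniform: Lyz2 was highest in replicate 1 and the C1q chains in replicate 3. The shared Fc receptor chain Fcer1g had FPKM of 1029, 742 and 731, the signalling adaptor Tyrobp of other myeloid receptors 780, 579 and 684, and the protease Ctss 714, 589 and 746. F4/80, encoded by Adgre1, had FPKM of 243, 194 and 206. In this list 10 members were highest in replicate 1 and 10 in replicate 3, against 31.7% and 42.4% of all detected genes.

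The most expressed genes combined macrophage, iron and lipid transcripts with hepatocyte and housekeeping transcripts. Apoe, the apolipoprotein that carries cholesterol out of macrophages, led with FPKM of 6071, 5718 and 7497 (mean 6429 ± 942 SD). The ferritin light chain Ftl1 followed at 5648, 5750 and 6660 FPKM, then Lyz2, then the ferritin heavy chain Fth1 at 5387, 4526 and 3591 FPKM. Both ferritin chains stood among the 4 highest genes of every library, with Ftl1 highest in replicate 3 and Fth1 in replicate 1. Next came actin Actb, the elongation factor Eef1a1, thymosin Tmsb4x and the MHC class I light chain B2m. B2m was nearly the same throughout, at 2469, 2431 and 2399 FPKM. The lysosomal protease Ctsb, the heme oxygenase Hmox1, the selenium carrier Selenop, and the invariant chain Cd74 completed the first 12. Cd74 had FPKM of 2070, 1508 and 2092.

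**Figure D1:**
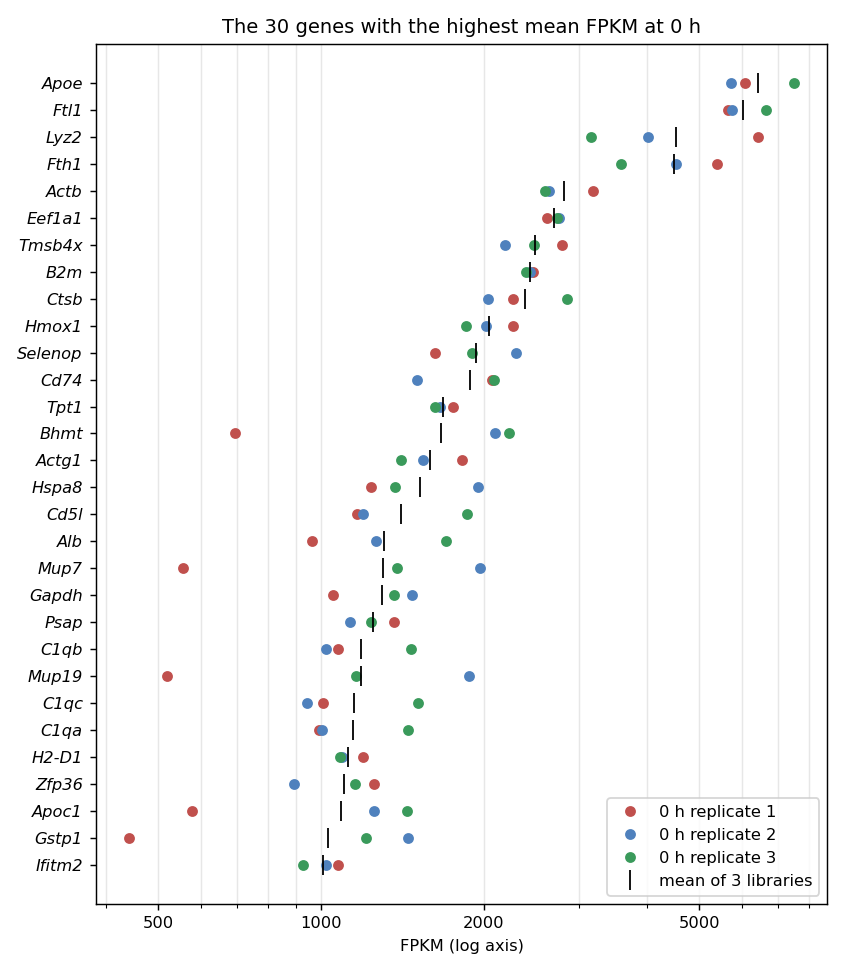
Deposited FPKM (log axis) of the 30 genes with the highest mean at 0 h, 1 point per library and a bar at the mean of 3. Apoe, Ftl1, Lyz2 and Fth1 lie above the rest in every library, and Bhmt, Mup7, Mup19, Apoc1 and Gstp1 show replicate 1 far to the left of replicates 2 and 3.

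Members of the hepatocyte list appeared from rank 14 on. Apoe and Selenop, which hepatocytes also make, are not in that list, and Selenop had FPKM of 1623, 2296 and 1900.4. Bhmt, which methylates homocysteine, had FPKM of 693, 2094 and 2224, and albumin, Alb, 963, 1263 and 1705. Of the 40 most expressed genes, 4 were major urinary protein genes, Mup7, Mup14, Mup19 and Mup20, which hepatocytes make. Genes of this family resemble each other in sequence, some more closely than others, so reads may be divided between them. Mup7 had FPKM of 556, 1969 and 1380. The glutathione transferase Gstp1 and the apolipoprotein Apoc1 were also lowest in replicate 1, at 442, 1447 and 1210 FPKM and 578, 1251 and 1442 FPKM. Among the other members of the 40 were the translationally controlled Tpt1, actin Actg1, the chaperone Hspa8, the glycolytic Gapdh, the lysosomal activator precursor Psap, the class I heavy chain H2-D1, the interferon-induced Ifitm2 and Ifitm3, profilin Pfn1, the ubiquitin gene Ubb, the surface protein Ly6e, the ribosomal Rpl10, and the early genes Zfp36, Junb and Dusp1.

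No small group of genes held most of the counts. The 10 most expressed genes of each library held 4.88%, 4.65% and 4.86% of its counts, and the 500 most expressed held 38.0%, 36.7% and 37.2%. Among detected genes the quartiles of mean FPKM were 5.43 and 30.1, and 30 genes reached 1000 FPKM while 783 reached 100. Of the 40 most expressed genes by mean, 23 were among the first 40 of every library. Replicates 2 and 3 shared 33 of their 40, whereas replicate 1 shared 24 with replicate 2 and 28 with replicate 3.

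Of the macrophage functions, degradation in lysosomes stood highest, with a median of 289 FPKM over 21 proteases, lipases and membrane proteins, 20 of them detected. The cysteine protease Ctsb had FPKM of 2265, 2041 and 2849, and the aspartic protease Ctsd 797, 770 and 1113. The asparagine-specific protease Lgmn had FPKM of 584, 597 and 876. These 3 proteases were highest in replicate 3, as were 12 of the 20 detected members, against 42.4% of all detected genes. With DESeq2 size factors the count was 10 of the 20, against 29.6%. Psap, Ctss and progranulin, Grn, were also above 480 FPKM in every library. The osteoclast protease Ctsk, at 0.33, 0.82 and 0.61 FPKM, was the 1 member not detected. The proton pump that acidifies the lysosome had a median of 86.2 FPKM, led by the membrane subunit Atp6v0c at 589, 478 and 538 FPKM. Its median spread between libraries was small, with a coefficient of variation (CV) of CPM of 6.43%, against 12.2% over all detected genes. The osteoclast-type subunit Atp6v0d2 was not detected, at 0.26, 0.33 and 0.44 FPKM.

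**Figure D2:**
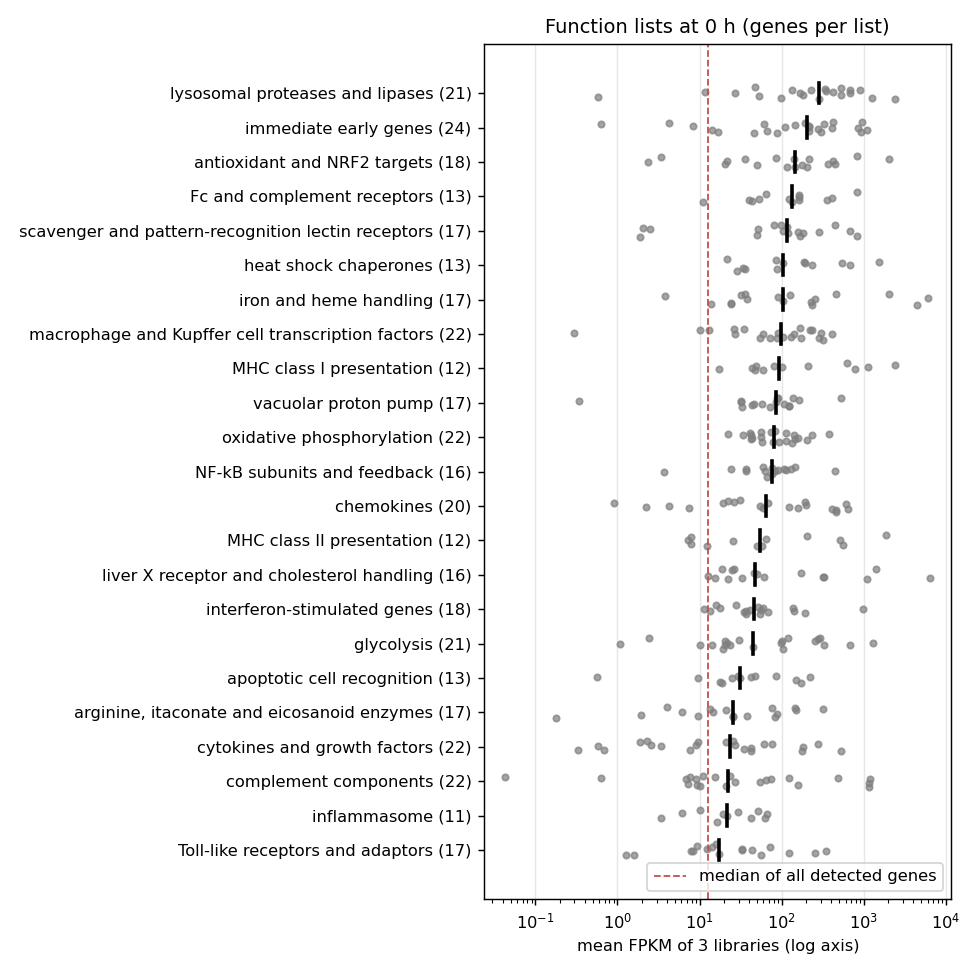
Mean FPKM over 3 libraries (log axis) of each member of the 23 function lists, with a black bar at the list median and a dashed line at 12.8 FPKM, the median of all detected genes. Lysosomal, immediate early and antioxidant lists have the highest medians, at 289, 204 and 144 FPKM, and Toll-like receptors and their adaptors the lowest, at 17.4.

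Iron and heme handling held 3 of the 10 most expressed genes and spanned a wide range of levels. Besides the ferritins, Hmox1, which opens the heme ring, had FPKM of 2263, 2016 and 1857. Spic, a transcription factor of macrophages that recycle iron, had FPKM of 356, 193 and 162. Slc11a1, which moves metal ions out of the phagosome, had FPKM of 263, 195 and 222. Hmox1 and Spic were highest in replicate 1, and the exporter Slc40a1 in replicate 3. Hamp, the hepatocyte hormone that lowers ferroportin, had FPKM of 94.4, 418 and 243. It is in the hepatocyte list too and, like most of that list, was lowest in replicate 1. The iron list had no single order, with 9 genes highest in replicate 1, 2 in replicate 2 and 6 in replicate 3. The shares over all detected genes were 31.7%, 25.8% and 42.4%. The median of the 17 genes was 103 FPKM.

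Uptake receptors were plentiful. The scavenger and lectin receptors had a median of 115 FPKM with 15 of 17 detected, led by Marco, Clec4f and the endosomal Cd68, whose FPKM was 452, 382 and 502. The scavenger receptor Msr1 had FPKM of 313, 251 and 297, the beta-glucan receptor Clec7a 203, 161 and 189, and the mannose receptor Mrc1 146, 183 and 180. Mrc1 is made by sinusoidal endothelial cells too. The Fc and complement receptors had a median of 133 FPKM with all 13 detected. The inhibitory Fc receptor Fcgr2b, also a gene of sinusoidal endothelium, had FPKM of 393, 425 and 429, and the activating Fcgr3 and Fcgr4 had 149, 152 and 188 and 130, 113 and 155. The integrin chain Itgb2 had FPKM of 213, 157 and 124 and the neonatal Fc receptor Fcgrt 145, 167 and 177, so these ran in opposite order.

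Recognition of dying cells was at a lower level, with a median of 30.8 FPKM and 12 of 13 detected. Rac1, which drives engulfment, had FPKM of 214, 215 and 236. The receptor kinase Axl had FPKM of 119, 118 and 216 and Mertk 65.5, 82.2 and 107, while the third of that family, Tyro3, was not detected at 0.55, 0.56 and 0.57 FPKM. Axl, Mertk and Timd4 were all highest in replicate 3. The bridging protein Pros1 had FPKM of 41.7, 55.2 and 44.9, and Cd300lf, an inhibitory lipid receptor, 42.2, 41.0 and 43.1. Complement components had a median of 22.3 FPKM with 20 of 22 detected, and the C1q chains were far above the rest. Properdin, Cfp, which stabilises the alternative convertase, had FPKM of 470, 420 and 567, C3 had 211, 149 and 114, and C6 had 109, 108 and 148.

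Lipid handling was led by Apoe and by Cd5l. Pltp, which transfers phospholipids, had FPKM of 282, 291 and 403, and lipoprotein lipase, Lpl, 315, 299 and 332. The liver X receptor genes differed in level, with Nr1h3 at 144, 169 and 206 FPKM and Nr1h2 at 63.8, 57.7 and 61.1 FPKM. Apoc1, like most of the hepatocyte list, was lowest in replicate 1. All 16 were detected, with a median of 48.0 FPKM.

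Antigen presentation through both MHC classes was present. Class II genes had a median of 54.1 FPKM, with the chains H2-Aa at 614, 438 and 610, H2-Ab1 at 582, 401 and 562, and H2-Eb1 at 233, 160 and 217 FPKM. Like Cd74, these 3 were lowest in replicate 2, as were 10 of the 12 class II genes (9 with DESeq2 size factors), against 28.6% of all detected genes (24.3%). The costimulatory Cd86 had FPKM of 66.8, 46.1 and 59.7, and Ciita, the activator of class II transcription, was the lowest member at a mean of 7.26 FPKM. Class I genes had a median of 91.6 FPKM and a median CV of 9.41%. The heavy chains H2-D1 and H2-K1 had FPKM of 1195, 1093 and 1084 and 840, 776 and 734. These H2 genes resemble each other in sequence, so reads may be divided between them. The chaperone Calr had FPKM of 691, 632 and 572, and the chaperone Tapbp, which loads peptide, 118, 95.1 and 92.4.

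The sensors of microbes were low beside the other functions. Toll-like receptors and their adaptors had a median of 17.4 FPKM with 16 of 17 detected, and the 6 highest were Cd14, Unc93b1, Tlr2, Myd88, Tlr1 and Tlr13. The lipopolysaccharide co-receptor Cd14 had FPKM of 527, 318 and 206, and Tlr2, the receptor for bacterial lipoproteins, 186, 101 and 87.2. Both were highest in replicate 1 and lowest in replicate 3, the order of the monocyte list. Tlr4, named after its values were seen because Cd14 serves it, had FPKM of 10.6, 13.04 and 13.9, with the opposite order. The inflammasome genes had a median of 21.3 FPKM with all 11 detected. The sensor Nlrp3 had FPKM of 99.6, 46.8 and 51.7, and the pore-forming Gsdmd 57.1, 50.9 and 48.4, while Casp1 stayed within 41.8 to 44.1 FPKM. 

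Cytokine and chemokine transcripts were measurable at 0 h. Interleukin 1 beta, Il1b, had FPKM of 806, 429 and 364 (mean 533 ± 239 SD, n = 3), Tnf 271, 123 and 137, and Il1a 217, 130 and 201. Tgfb1 had FPKM of 319, 273 and 232, the growth factor Csf1 102, 92.2 and 37.3, and the receptor antagonist Il1rn 103, 53.0 and 25.8. All 6 were highest in replicate 1, as were 15 of the 17 detected cytokines, against 31.7% of all detected genes. With DESeq2 size factors the count was still 15, and the share of all detected genes was 38.8%. The interferon gene Ifnb1 was lowest of the 22, at 0.21, 0.35 and 0.43 FPKM. Of the chemokines, 19 of 20 were detected. Ccl3 had FPKM of 846, 558 and 533 and Ccl4 818, 531 and 457, both ligands for inflammatory cells. The neutrophil attractant Cxcl2 had FPKM of 747, 325 and 322, and the B cell attractant Cxcl13 658, 500.3 and 221. Ccl6 ran the other way, at 347, 354 and 520 FPKM, and the interferon-induced Cxcl10 had 291, 186 and 125 FPKM. Without replicate 1, the mean share of counts was 0.247% for the cytokine list and 0.307% for the chemokine list, against 0.292% and 0.353% with it.

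Immediate early genes, which rise within minutes of many stimuli, had the second highest median of the function lists, 204 FPKM. Without replicate 1 it was 177 FPKM. Zfp36, which degrades cytokine messages, had FPKM of 1255, 893 and 1157, the AP-1 subunits Junb 1113, 801 and 925 and Fos 886, 761 and 894, and the phosphatase Dusp1 991, 819 and 934. Jun had FPKM of 390.3, 380 and 505, and the zinc finger factor Egr1 431, 378 and 428. All 6 stayed far above the median of detected genes in every library, and replicate 2 was the lowest. Nuclear factor kappa B genes had a median of 76.0 FPKM (57.0 without replicate 1) with all 16 detected, and every member was highest in replicate 1. The inhibitor Nfkbia had FPKM of 594, 326 and 430.5, and the feedback deubiquitinase Tnfaip3 169, 78.3 and 93.4. The subunits Nfkb1 and Rela had FPKM of 138, 107 and 72.3 and 111, 87.6 and 71.0. Nfkbiz, a nuclear member of the inhibitor family, had 172, 87.4 and 129 FPKM, and Socs3, which damps cytokine receptors, 165, 131 and 144. Of all detected genes, 31.7% were highest in replicate 1, or 38.8% with DESeq2 size factors, under which all 16 were still highest there. The NF-kB list took 0.563%, 0.331% and 0.331% of counts. In the same libraries the monocyte list took 0.768%, 0.421% and 0.235%, and its part in the NF-kB order was not tested.

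Lineage transcription factors had a median of 97.1 FPKM with 21 of 22 detected. The Kupffer cell regulator Id3 had FPKM of 381, 363 and 496, and PU.1 (Spi1) 358, 262 and 243. Cebpb, a factor of inflammatory myeloid genes, had FPKM of 395, 269 and 302, and the shear-responsive Klf2, which endothelial cells also use, 234, 283 and 380. Bhlhe41, a factor of lung alveolar macrophages, was the 1 member not detected, at 0.29, 0.36 and 0.24 FPKM. Interferon-stimulated genes had a median of 46.3 FPKM and all 18 with a row were detected. Ifitm3 had FPKM of 1075, 911 and 912, Bst2, which tethers virus particles, 182, 190 and 199, and Irf7, a regulator of type I interferon, 133, 125 and 165. Oasl1, a repressor of Irf7 translation in mice, had FPKM of 175, 143 and 93.7, the ubiquitin-like Isg15 78.9, 64.8 and 59.6, and the synthetase Oas1a 61.7, 52.0 and 66.6. The orders differed from gene to gene, with 7 genes highest in replicate 1, 3 in replicate 2 and 8 in replicate 3. Over all detected genes these shares were 31.7%, 25.8% and 42.4%.

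Of the energy metabolism and stress lists, oxidative phosphorylation and heat shock genes were mostly lowest in replicate 1, and glycolytic and antioxidant genes were mixed. All 22 oxidative phosphorylation genes were detected, with a median of 80.6 FPKM (90.4 without replicate 1), and all 22 were lowest in replicate 1, against 46.0% of all detected genes, or 39.7% with DESeq2 size factors, under which all 22 were still lowest there. The ATP synthase subunits Atp5b and Atp5a1 had FPKM of 285, 443 and 415 and 182, 273 and 249, and the cytochrome oxidase subunit Cox4i1 190.1, 212 and 209. Ndufa4, Cox5a and Cox5b followed, all above 110 FPKM in every library. The share of counts of the list was 0.234%, 0.351% and 0.330%. The hepatocyte list had its lowest share in the same library, and its part in this was not tested. Glycolytic genes had a median of 44.2 FPKM, or 70.9 over a set limited to the detected members. Of 20 detected, 10 were highest and 7 lowest in replicate 1, against 31.7% and 46.0% of all detected genes. Among their 6 highest, Gapdh had 1051, 1475 and 1367 FPKM, the aldolase Aldoa 355, 324 and 308, and the pyruvate kinase Pkm 352, 265 and 259. Gapdh was thus lowest and Aldoa and Pkm highest in replicate 1. Ldha and Eno1 had FPKM of 243, 285 and 296 and of 235, 270 and 259.

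Heat shock chaperones had a median of 103 FPKM (121 without replicate 1) and all 13 were detected. Of these, 10 were lowest in replicate 1, against 46.0% of all detected genes. With DESeq2 size factors the count was still 10, against 39.7%. Hspa8 had FPKM of 1239, 1956 and 1372, Hsp90ab1 579, 769 and 693, and the endoplasmic reticulum chaperone Hspa5 595, 553 and 474. Hspa1a and Hspa1b, near-identical copies whose split is uncertain, had FPKM of 195, 146 and 357 and 145, 129 and 308, and so were highest in replicate 3. Antioxidant genes had a median of 144 FPKM. Of 17 detected, 7 were highest and 8 lowest in replicate 1, against 31.7% and 46.0% of all detected genes. After Hmox1, the glutathione peroxidase Gpx1 had FPKM of 592, 922 and 975, superoxide dismutase Sod1 291, 515 and 519, and catalase, Cat, 186, 445 and 465. These 3 were lowest in replicate 1, while the peroxiredoxin Prdx1, at 421, 432 and 401 FPKM, was level and Prdx5, at 254, 219 and 180 FPKM, was highest in replicate 1. The cystine carrier Slc7a11, the lowest member, had FPKM of 5.39, 1.28 and 0.40.

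Enzymes that mark macrophage activation states were low or uneven, with a median of 25.5 FPKM. The nitric oxide synthase Nos2 was not detected, at 0.26, 0.16 and 0.11 FPKM. Arg1, the arginase that hepatocytes use in the urea cycle and some macrophages use as well, had FPKM of 105, 517 and 329. Acod1, which makes itaconate, had FPKM of 168, 70.8 and 26.6. Arg1 had the order of the hepatocyte list and Acod1 that of the monocyte list, and the part of either cell type was not tested. The eicosanoid genes Alox5ap, Hpgd and Ptgs1 had FPKM of 198, 138 and 118, of 89.7, 127 and 216 and of 53.8, 68.7 and 126.

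The share of counts in lists of cell type markers was then compared between libraries. The intervals that follow are 95% Wilson intervals and cover counting error only. The shares are not cell fractions, since lists differ in the number and level of their genes, and in bulk samples fewer cells of a type and less RNA per cell cannot be told apart. The Kupffer cell list held 0.944% (0.940% to 0.948%), 0.909% (0.904% to 0.913%) and 1.30% (1.30% to 1.31%) of counts, a mean of 1.05% ± 0.219 (SD, n = 3), or 1.11% without replicate 1. The pan-macrophage list held 2.29%, 1.77% and 2.04%. Replicate 3 was thus highest for the first list and replicate 1 for the second. The order of the second rested on its top member. Without Lyz2 the pan-macrophage list held 1.64%, 1.37% and 1.72%, with replicate 3 highest.

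**Figure D3:**
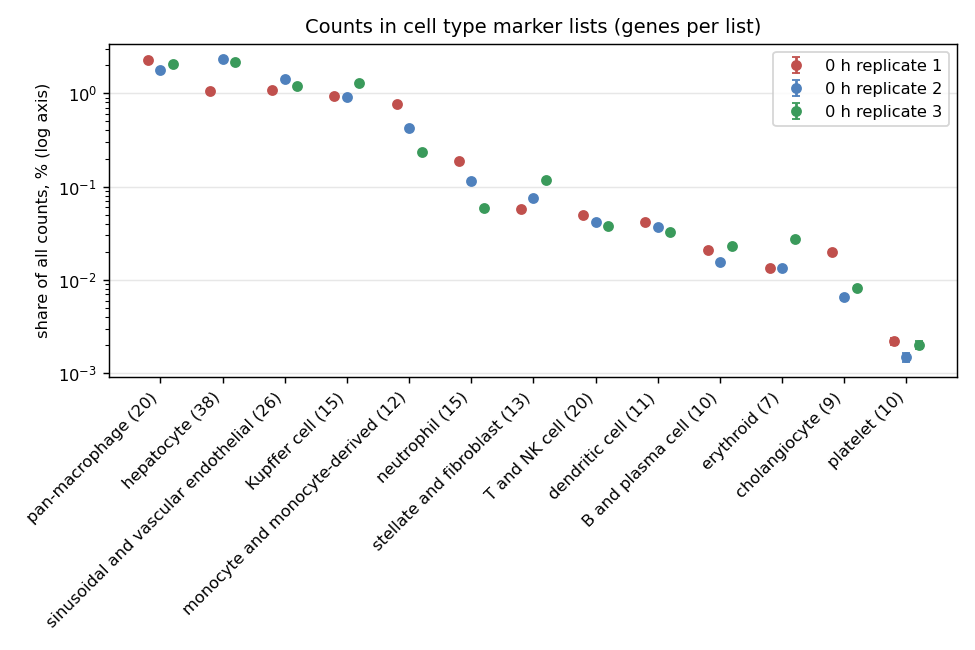
Share of all counts (log axis, %) in each of 13 cell type lists, with the number of genes in parentheses, 1 point per library. Bars are 95% Wilson intervals, mostly smaller than the points. Hepatocyte shares are lowest in replicate 1, while neutrophil and monocyte shares are highest in replicate 1 and lowest in replicate 3.

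Hepatocyte transcripts held 1.06% (1.05% to 1.06%), 2.32% (2.31% to 2.33%) and 2.19% (2.19% to 2.20%) of counts. The mean was 1.86% ± 0.694 (SD, n = 3), or 2.26% without replicate 1. Replicates 2 and 3 were close to each other, and replicate 2 held 2.19 times that of replicate 1. The Kupffer list, with 15 genes against 38, held 0.891, 0.392 and 0.595 times the counts of the hepatocyte list. The median of the hepatocyte list was 156 FPKM, beside 163 FPKM for the Kupffer list. By library the medians were 97.9, 184 and 198 FPKM for the hepatocyte list and 117, 141 and 217 FPKM for the Kupffer list. The hepatocyte median was thus the higher in replicate 2 only. All 22 major urinary protein genes, taken as a separate set, held 0.365%, 1.24% and 0.855%. Of the 38 hepatocyte genes 37 were detected, and 33 of these were lowest in replicate 1, against 46.0% of all detected genes. The gluconeogenic G6pc was not detected, at 0.12, 0.14 and 0.26 FPKM, while the gluconeogenic Pck1 had FPKM of 43.0, 63.4 and 66.8. Pck1 and the genes named in the next paragraph beyond the 6 highest were named after their values were seen.

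Hepatocyte genes did not differ between libraries by a common factor. The fatty acid carrier Fabp1 had FPKM of 299, 924 and 991 and the apolipoprotein Apoa2 328, 1022 and 1021, each more than 3 times as high in replicates 2 and 3 as in replicate 1. The urea cycle enzyme Ass1 had FPKM of 240.1, 996 and 690, a ratio of highest to lowest CPM of 4.15, and the glycine methyltransferase Gnmt had a ratio of 4.28. Several plasma protein genes differed less. Transferrin, Trf, had FPKM of 425, 438 and 524, a ratio of 1.23. Hemopexin, Hpx, had a ratio of 1.28 and the apolipoprotein Apob 1.15. Alb had a ratio of 1.77. Other plasma protein genes differed more, with ratios of 3.01 for Apoc3, 2.73 for Ttr and 2.64 for Rbp4. The enzyme gene Cyp2e1 had a ratio of 1.55, so the ratios did not separate enzymes from plasma proteins. Haptoglobin, Hp, ran the other way at 446, 379 and 248 FPKM, and neutrophil precursors make it too. In CPM, the spread among hepatocyte genes thus ranged from a ratio of 1.15 for Apob to 4.43 for Hamp.

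Endothelial transcripts held 1.08% (1.08% to 1.09%), 1.41% (1.41% to 1.42%) and 1.19% (1.18% to 1.19%) of counts, a mean of 1.23% ± 0.167 (SD, n = 3), or 1.30% without replicate 1. All 26 genes were detected, with a median of 123 FPKM. The lectin Clec4g of liver sinusoids had FPKM of 527, 592 and 493, the water channel Aqp1 366, 510.3 and 424, and the orphan receptor Gpr182 205, 304 and 250. Eng, a co-receptor for TGF-beta, had FPKM of 242, 296 and 251, the recycling protein Ehd3 183, 286 and 225, and the junction cadherin Cdh5 169.85, 194 and 211. Of the 26, 21 were highest in replicate 2 and 22 lowest in replicate 1, or 23 and 17 with DESeq2 size factors. Over all detected genes these shares were 25.8% and 46.0%, or 31.6% and 39.7% with DESeq2 size factors. Lyve1, the hyaluronan receptor of sinusoidal and lymphatic endothelium, was lowest in replicate 3 with FPKM of 199, 209 and 108, as was Clec4g. In CPM, 4 of the 26 genes were lowest there, or 9 with DESeq2 size factors. The Kupffer list held 0.871, 0.644 and 1.10 times the counts of the endothelial list.

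Among the leukocytes, monocyte and neutrophil transcripts differed most between libraries. The monocyte list held 0.768% (0.764% to 0.772%), 0.421% (0.418% to 0.424%) and 0.235% (0.232% to 0.237%) of counts, a mean of 0.474% ± 0.271 (SD, n = 3), or 0.328% without replicate 1. Of its 12 genes, 11 were highest in replicate 1, against 31.7% of all detected genes. With DESeq2 size factors the count was still 11, against 38.8%. Chil3, a chitinase-like protein of monocytes and alveolar macrophages with close copies in the genome, had FPKM of 1109, 407 and 187. The monocyte surface gene Ly6c2 had FPKM of 299, 149 and 95.1, Plac8 253, 157 and 124, and the coagulation factor F13a1 199, 114 and 56.2. Fibronectin, Fn1, which hepatocytes also make, had FPKM of 320, 181 and 90.1, with the order of the monocyte genes. Treml4 was nearly level at 192, 150 and 168 FPKM.

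Neutrophil transcripts held 0.188%, 0.115% and 0.0596% of counts, a mean of 0.121% ± 0.0645 (SD, n = 3), or 0.0874% without replicate 1. The calprotectin subunits S100a9 and S100a8 had FPKM of 717, 369 and 183 and 365, 206 and 98.7. The receptor Csf3r had FPKM of 207, 137 and 83.3, the siderophore binder Lcn2 201, 92.8 and 27.8, Retnlg 176, 88.5 and 41.2, and the collagenase Mmp8 62.8, 31.7 and 11.9. Each of the 6 was highest in replicate 1 and lowest in replicate 3. Of 15 list genes 10 were detected. The genes of granule formation in bone marrow precursors were at the bottom of the list, with Elane at 0.24, 0.12 and 0.24 and Mpo at 0.08, 0.16 and 0.35 FPKM. Ngp, another precursor granule gene, had FPKM of 4.29, 1.67 and 6.91, and was the 1 detected member not highest in replicate 1. Among all detected genes, 31.7% were highest in replicate 1.

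Lymphocyte and dendritic cell transcripts of the listed genes were scarce. The T and NK cell list held 0.0495%, 0.0414% and 0.0382% of counts, led by the cytokine receptor chain Il2rb at 41.1, 34.0 and 33.2 FPKM and granzyme B, Gzmb, at 31.7, 32.4 and 24.1 FPKM. The T cell receptor chains Cd3g and Cd3e had means of 21.0 and 9.22 FPKM. The dendritic cell list held 0.0420%, 0.0366% and 0.0330%, led by Siglech of plasmacytoid dendritic cells at 48.8, 42.6 and 30.6 FPKM. Of the 13 B cell list genes, Ighm, Ighd and Igkc had no row, so they are missing from its share and from the leukocyte total. The other 10 held 0.0211%, 0.0156% and 0.0231%, led by Cd79a at 45.8, 32.0 and 55.5 FPKM. B cell genes were thus highest in replicate 3, except for the plasma cell gene Jchain at 11.3, 13.04 and 2.44 FPKM and its partner Mzb1 at 5.70, 5.27 and 2.87 FPKM. Taken over monocytes, neutrophils, T and NK, B and dendritic cells, the leukocyte lists held 1.07%, 0.630% and 0.389%, a mean of 0.696%, or 0.509% without replicate 1. The Kupffer list held 0.884, 1.44 and 3.36 times as many counts as they did.

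Stellate cell and fibroblast genes held 0.0570%, 0.0748% and 0.117% of counts. All 12 detected members were lowest in replicate 1 and highest in replicate 3, against 46.0% and 42.4% of all detected genes. Ecm1 had FPKM of 132, 167 and 236 and the proteoglycan Dcn 67.9, 94.0 and 157, while the retinol acyltransferase Lrat of stellate cells had 1.14, 2.53 and 5.92. Cholangiocyte genes held 0.0201%, 0.00652% and 0.00827%. All 6 detected members were highest in replicate 1, against 31.7% of all detected genes. Spp1, which activated macrophages also make, had 101, 25.9 and 36.2 FPKM, and the keratin Krt19 6.95, 3.31 and 4.45. Erythroid genes held 0.0134%, 0.0134% and 0.0278%. The globin genes Hba-a1 and Hbb-bs, members of near-identical pairs, had FPKM of 84.3, 65.6 and 166 and 76.7, 73.2 and 151. Platelet genes held 0.00220%, 0.00148% and 0.00199%. Of 10 platelet genes only the chemokine Pf4 was detected in all 3 libraries, at 23.5, 14.2 and 20.9 FPKM.

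**Figure D4:**
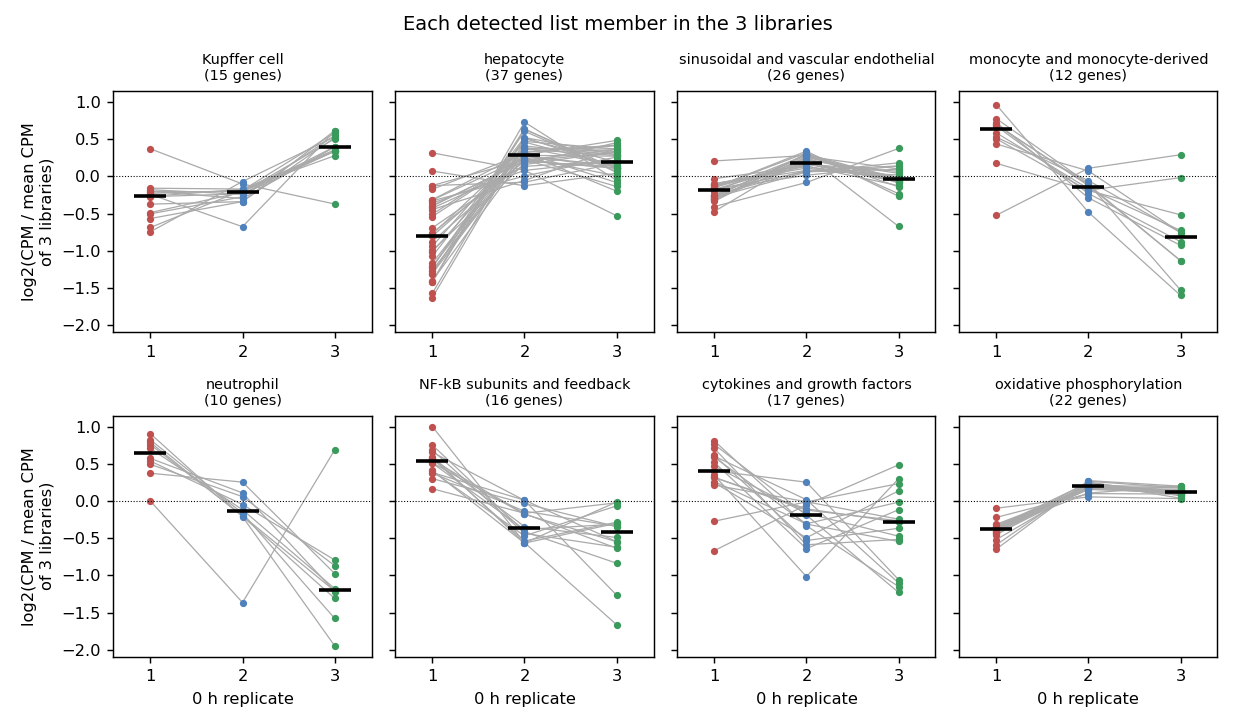
Log2 ratio of CPM in each library to the mean of 3 libraries, 1 line per detected gene, with a black bar at the median of the list, for 8 lists. All 22 oxidative phosphorylation genes are lowest in replicate 1, and all 16 NF-kB genes are highest there. In replicate 3, 14 of 15 Kupffer cell genes are highest, and in replicate 2, 21 of 26 endothelial genes. Over all detected genes, these shares are 46.0%, 31.7%, 42.4% and 25.8% in the order named.

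Across all detected genes the median CV of CPM was 12.2%, and 371 genes (3.23%) were above 50%. Over 2 libraries the median CV was 7.32% without replicate 1, 12.3% without replicate 2 and 10.1% without replicate 3. A CV over 2 libraries is not directly comparable with a CV over 3. Among genes with a mean of at least 10 FPKM, the carbonic anhydrase Car3 varied most, at 13.2, 24.3 and 152 FPKM. Next were the receptor Mrgpra2b at 27.5, 6.57 and 2.59 FPKM, the calcium-binding Chp2 at 5.17, 7.87 and 29.6 FPKM and the lectin receptor Clec4e at 141, 44.5 and 19.9 FPKM. The acute phase genes Saa1 and Saa2, near-identical copies, peaked in replicate 2, at 32.2, 125 and 31.3 and at 18.9, 88.5 and 20.4 FPKM. Also among the 12 most variable were Chil1, Chil3, Acod1 and Lcn2, all highest in replicate 1, and Cyp26b1, which degrades retinoic acid, at 12.4, 93.3 and 45.6 FPKM. Mup13 had 0 counts in replicate 1 and FPKM of 25.7 and 21.8 in the others, where division among copies is uncertain.

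The 12 steadiest genes were the trafficking genes Trappc4 and Napa, the nuclear receptor Pparg, the kinase Sgk3, the RNA-binding Ybx3, the ribosomal Rpl15, Sumo2, Upf3a of nonsense-mediated decay, the chromatin genes Ss18 and Yeats4, Matr3 of the nuclear matrix, and the elongation factor Eloa. Their CV was 0.121% to 0.399%. Pparg, a lipid-sensing receptor of macrophages, had FPKM of 12.4, 12.5 and 12.6, and Rpl15 145, 145 and 145. With 6551 genes ranked, the smallest CVs are the extreme of many and describe these libraries only.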

How the data were processed

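RNA of 3 libraries at 0 h was described. The authors deposited expected counts (estimates, of which 35.3% to 35.5% were not whole), FPKM and TPM per gene, per the file headers and their values. Reads were aligned with HISAT2 to GRCm38, per the submitters' processing notes. Which program counted them, with what annotation and versions, is not given in the sources used here. Almost all genes of the table were protein-coding (18669 of 18853), so shares are of those counts. Positions and promoter windows come from RefSeq GRCm38.p6, matched by gene identifier (18797 matched). Without strand information, overlapping genes cannot be told apart. The deposited tables of other times and the antibody groups were not used here, and 0 columns were unmatched.

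CPM was computed as counts over the library total, times 1000000. Levels between genes are FPKM, and spread between libraries is the CV of CPM over detected genes (at least 1 FPKM in all 3 libraries). Shares have 95% Wilson intervals. No test between groups was made. To look for a library deposited more than once, chi-square for each pair was computed over genes whose counts summed to 20 or more. Divided by its degrees of freedom, it was 30.7 or higher. The 36 lists (13 cell type, 23 function) hold 580 distinct genes, 31 of them in more than 1 list; Ighm, Ighd, Igkc, Mx1 and Mx2 had no row, and C5 was found as Hc. Members and lists were chosen with earlier results of these data known. Named were the 40 genes with the highest mean FPKM, the 12 with the highest and the 12 with the lowest CV among those with a mean of at least 10 FPKM (predicted genes and pseudogenes left out), up to 6 highest members per list, members at 0 in all libraries (there were 0) and the 4 markers. Other list members, such as the lowest of a list or those that ran against it, were picked with their values in view. A few genes that this rule names are not reported here.

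As alternatives, TMM (edgeR 4.0.16) and DESeq2 1.42.0 size factors (R 4.3.3), FPKM and TPM shares, other detection limits, detected members only, lists without their top member, each library left out, and GAGGAA in place of GAGGAAGT were tried. The order and share calculations were tested on simulated data. Python 3.11.15, pandas 2.3.3 and numpy 2.4.6 were used.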

Additional observations from a re-analysis of the deposited data

How the results depend on the processing

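No paired analysis was possible because only 1 group was described. Of 250 alternative values, 38 lay beyond the spread between libraries or, for counts, beyond the limit set for them. Of the 40 most expressed genes by FPKM, 24 were also among the 40 highest by CPM, which does not divide by length. Without its top member, the mean Kupffer cell share was 0.773% and the pan-macrophage share 1.58%. As a share of TPM or of summed FPKM, the pan-macrophage list held 3.04%, the endothelial list 0.852% and the neutrophil list 0.248%. On that scale the erythroid share was 0.0677% (0.0182% of counts) and the platelet share 0.00498% (0.00189% of counts). With detected members only, medians were 25.5 FPKM for complement, 314 for lysosomal, 24.9 for Toll-like receptor, 34.4 for cytokine and 70.9 for glycolysis genes. With each library left out in turn, medians ranged from 269 to 305 FPKM for lysosomal, 20.1 to 26.1 for cytokine, 177 to 218 for immediate early and 18.8 to 23.9 for arginine, itaconate and eicosanoid genes, and the median CV of detected genes from 7.32% (without replicate 1) to 12.3%. With no filter on low values the median CV was 17.8%. The mean cholangiocyte share was 0.0116%, 0.00739% without replicate 1 and 0.00413% without Spp1. For the motif count, 5 Kupffer windows held GAGGAA and 0 held GAGGAAGT. The cause of these shifts was not tested, apart from the changes that the settings themselves make to genes, libraries or units.

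Under TMM, DESeq2 size factors, FPKM and TPM, the highest and lowest library by summed level stayed the same for 27 of the 36 lists. In the other 9 the lowest library changed for 8 (erythroid, proton pump, iron, cholesterol, inflammasome, NF-kB, interferon and antioxidant), and the scavenger list was highest in replicate 1 by TPM. The monocyte share without Fn1 (0.320%) and the median CV outside the hepatocyte, neutrophil and monocyte lists (12.1%) were alternatives chosen after seeing the data. With 3 libraries of 1 group, the spread is known only roughly.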

Other observations

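Some genes outside the lists were looked at after the data were seen. Ptprc, the leukocyte surface phosphatase CD45, had FPKM of 218, 151 and 140.4 in replicates 1, 2 and 3, the order of the monocyte list. Trem2, a lipid receptor of tissue macrophages, had FPKM of 14.4, 14.4 and 28.8, the order of the Kupffer cell list. The Y-linked genes Ddx3y and Eif2s3y were detected in every library, at 32.1, 31.7 and 26.9 and at 36.5, 32.0 and 36.6 FPKM. The 90 ribosomal protein genes in the table held 2.23%, 2.10% and 2.19% of counts and 7.09%, 6.47% and 6.74% of TPM, a narrower range between libraries than any leukocyte list.

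Among the 200 genes with the highest CV of CPM, out of the 6551 with a mean of at least 10 FPKM and no predicted name, the highest library was replicate 1 for 68, replicate 2 for 83 and replicate 3 for 49, and replicate 1 was the lowest for 128. Of all detected genes, 31.7%, 25.8% and 42.4% were highest in replicates 1, 2 and 3, and 46.0% were lowest in replicate 1.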
